A study of Mus musculus with 24 samples.

Results

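The fibroblast growth factor (FGF) genes described here were 6 ligands (Fgf1, Fgf2, Fgf7, Fgf9, Fgf10 and Fgf18) and 4 receptors (Fgfr1, Fgfr2, Fgfr3 and Fgfrl1). They were found by exact gene symbol, and all 10 were among the 25755 genes listed at each of the 4 ages. RNA was sequenced from cells of the dermal papilla (DP), the cluster of mesenchymal cells at the base of each hair follicle, sorted from mouse back skin. Control and dM1/2 mice were compared at postnatal day 20 (P20, telogen, the resting phase of the first hair cycle), P24 and P28 (early and mid-anagen, the growth phase of the second cycle) and P60 (telogen of the second cycle). Each of the 8 groups had 3 libraries, labelled as biological replicates, which gave 24 in all.

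All mice of both genotypes carried 1 Cor-cre transgene, which drives Cre recombinase from Corin in the DP, and a ROSA26 EYFP reporter by which the cells were sorted in 2 rounds from each skin. The dM1/2 mice were Hdac1 Flox/Flox and Hdac2 Flox/Flox, so that both histone deacetylase genes are cut where the transgene is active. The controls also carried Flox alleles. The crosses allowed Hdac1 Flox/+ with Hdac2 Flox/+, with Hdac2 +/+ or with Hdac2 Flox/Flox, and Hdac2 Flox/+ with Hdac1 +/+ or with Hdac1 Flox/Flox, and the labels do not say which of these each control library was. By the study's methods, P20 mice were female, P24 and P28 mice were male, and both sexes were used at P60.

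FGF ligands are secreted proteins that bind FGF receptor tyrosine kinases on the same or neighbouring cells together with heparan sulfate, and the activated receptor signals through the RAS to ERK cascade. Fgf7 and Fgf10 are made by mesenchyme and act mainly on the epithelial form of Fgfr2, so in the follicle they carry a signal from the DP to the overlying keratinocytes. Fgfrl1 binds ligands but lacks the kinase domain of the other receptors.

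Fgf7 (Ensembl ENSMUSG00000027208) lies at chr2:126034658-126091185 and Fgf10 (ENSMUSG00000021732) at chr13:118714699-118792573, both on the plus strand of GRCm38.p6 in RefSeq. The 250 bases before each start are shown because both ligands were lower in dM1/2 at P24 and P28, with matches to the TCF/LEF core in capitals. The core was searched as CTTTGA and CTTTGT on both strands.
Fgf7, chr2:126034408-126034657: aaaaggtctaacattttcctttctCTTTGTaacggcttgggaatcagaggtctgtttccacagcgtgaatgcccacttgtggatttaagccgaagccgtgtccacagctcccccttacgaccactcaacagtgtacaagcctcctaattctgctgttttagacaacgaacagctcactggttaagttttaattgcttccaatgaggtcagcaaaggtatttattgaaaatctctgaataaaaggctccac
Fgf10, chr13:118714449-118714698: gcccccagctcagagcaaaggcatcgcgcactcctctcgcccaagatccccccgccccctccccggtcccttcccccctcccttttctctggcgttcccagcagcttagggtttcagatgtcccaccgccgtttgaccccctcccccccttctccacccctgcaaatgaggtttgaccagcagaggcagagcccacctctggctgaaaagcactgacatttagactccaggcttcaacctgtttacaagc
The Fgf7 window held 1 match, CTTTGT on the plus strand, whose first base lies 226 bases before the start, and the Fgf10 window held 0 matches. Of 32851 promoter windows of this length, 27.6% held at least 1 of the cores, 13.8% CTTTGA and 16.5% CTTTGT. These letters describe the windows only.

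Libraries held 8171944 to 49331751 reads on genes, with 8171944 to 13369732 at P20 and P60 and 35469841 to 49331751 at P24 and P28, so that stage, sex and depth cannot be told apart where telogen is set against anagen. All 15 DP markers (among them Corin, Wif1, Vcan and Alpl) had reads in every group, and the summed level of 12 keratinocyte markers was 70.9 to 870.8 normalised reads against at least 17003 for the DP markers. In the dM1/2 libraries the level of Hdac1, counted over the whole gene, was 209, 188 and 116 normalised reads at P24 against 675, 668 and 668 in control (log2 fold change -2.01, limma adjusted p = 0.00167). It was lower at P20 (-0.72, adjusted p = 0.122), P28 (-0.58, 0.454) and P60 (-0.25, 0.986) without passing the test, and the control and dM1/2 libraries overlapped at P28 and P60. The library labelled P28 control 3 had 105 normalised reads of Hdac1, under all 3 dM1/2 libraries of its age (190, 149 and 126). P28 control 1 had 214 and P28 control 2 had 529. Hdac1 Flox/Flox is among the control genotypes, and its part in these values was not tested. Hdac2 was not called at any age, with log2 fold changes of -0.01 to 0.27. The library P28 control 2 stood apart, with 19.8% of its reads on Col1a1 against 5.3% to 10.9% on the most abundant gene of the other P28 libraries. Results at P28 that turn on P28 control 2 or on the library labelled P28 control 3 are given with and without it.

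Levels are in normalised reads, the read count of a gene divided by the size factor of its library. To set genes beside each other, they were divided by the length of the gene's merged exons. Per kilobase, Fgfr1 led the family in both telogen control groups, at 1346 ± 190.0 (SD, n = 3) normalised reads per kilobase at P20 and 1457 ± 120.1 at P60. In anagen controls the order was led by Fgf7, with 4258 ± 1250.2 normalised reads per kilobase at P24 and 3416 ± 1735.2 at P28, with libraries that overlapped those of Fgfr1 at both ages. Fgf10 was at 2227 ± 1076 normalised reads per kilobase at P24 and 3192 ± 2015 at P28 in controls, and the P28 values of Fgf7 and Fgf10 lie within each other's spread. Fgf1 and Fgf9 were the lowest members in every group, between 1.43 and 6.79 normalised reads per kilobase. Among the kinase receptors in control, the mean of Fgfr1 was above that of Fgfr2 at each age, and Fgfr3 was below both. Across the 8 groups, Fgf7 was highest in P24 control, then P28 control, P24 dM1/2, P28 dM1/2, P60 dM1/2, P60 control, P20 control and P20 dM1/2, and the ranges of neighbours overlapped for P24 and P28 control, for both P60 groups and for both P20 groups. Fgf10 was highest in P28 control, then P24 control, P24 dM1/2, P28 dM1/2, P20 dM1/2, P20 control, P60 control and P60 dM1/2, with overlap between the controls of P24 and P28, between the dM1/2 groups of P24 and P28 and between the controls of P20 and P60.

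**Figure D1:**
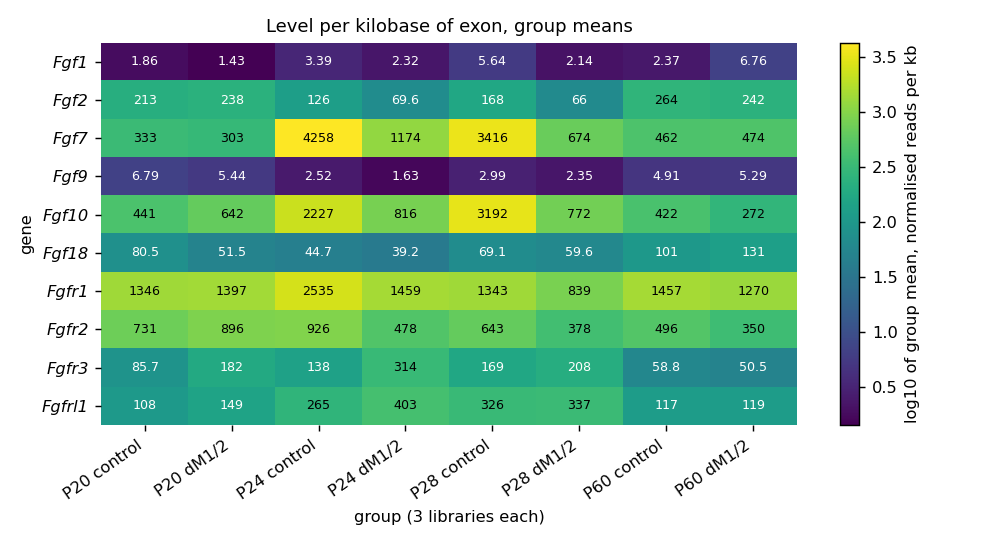
Group means of normalised reads per kilobase of merged exon for the 10 genes (vertical axis) in the 8 groups (horizontal axis, 3 libraries each), with the colour on a log10 scale and the mean printed in each cell. Across the groups, Fgf7 and Fgf10 are each brightest in the P24 and P28 controls, at 2227 to 4258. In P24 control the mean of Fgfr1, at 2535, is above that of Fgf10. Fgf1 and Fgf9 stay below 7 in every group.

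The comparison of dM1/2 with control asks how loss of Hdac1 and Hdac2 in the DP changed expression at each stage, and Fgf7 and Fgf10 were both lower in dM1/2 in anagen. At P24, Fgf7, also named keratinocyte growth factor, was at 12541, 18377 and 10568 normalised reads in the 3 control libraries and at 3795, 4004 and 3645 in dM1/2. Every dM1/2 library lay under the lowest control. The difference was 3.53-fold (log2 fold change -1.82 ± 0.21 SE, limma adjusted p = 0.00184), and it passed the test without any 1 of the 6 libraries. At P28, Fgf7 was at 12442, 4908 and 15936 normalised reads in control and at 2413, 1955 and 2201 in dM1/2. The groups again did not overlap, and P28 control 2 was the lowest control. The difference at P28 was 4.54-fold (log2 fold change -2.18 ± 0.41 SE, limma adjusted p = 0.00758), -2.69 without P28 control 2 and -1.84 without the library labelled P28 control 3, both past the threshold.

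Fgf10, the mesenchymal ligand closest to Fgf7 in receptor use, was at 10602, 15009.6 and 5129.6 normalised reads in the P24 controls and at 2820.1, 4917 and 3526 in dM1/2. The groups did not overlap, although P24 control 3 and P24 dM1/2 2 were close to each other. The difference was 2.56-fold (log2 fold change -1.35 ± 0.39 SE, limma adjusted p = 0.0378). The call was kept without P24 control 3 (-1.79) and was lost without P24 control 1 (-1.26, adjusted p = 0.0909), control 2 (-1.01, 0.105), dM1/2 1 (-1.17, 0.117), dM1/2 2 (-1.57, 0.0516) or dM1/2 3 (-1.33, 0.111). At P28, Fgf10 was at 15087, 5222 and 23752 normalised reads in control and at 3909.5, 3257 and 3492 in dM1/2. All 3 dM1/2 libraries were under the lowest control, which was P28 control 2. The difference was 3.48-fold (log2 fold change -1.80 ± 0.51 SE, limma adjusted p = 0.0324), -2.42 without P28 control 2 and -1.32 without the library labelled P28 control 3, and the call was lost without P28 control 1 or any 1 of the 3 dM1/2 libraries, with adjusted p up to 0.107.

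In telogen the levels of both ligands were lower. Fgf7 at P20 was at 974.9, 1169 and 1098 normalised reads in control and at 1478, 772 and 703 in dM1/2, and at P60 at 1381, 1451 and 1669 in control and at 1921, 1385 and 1308 in dM1/2. The genotypes overlapped at both ages, with log2 fold changes of -0.21 (95% confidence interval -0.77 to 0.34) at P20 and 0.02 (-0.40 to 0.44) at P60. Fgf10 at P20 was at 1915, 1637 and 2529.7 normalised reads in control and at 2938, 3240.0 and 2684 in dM1/2. Here every dM1/2 library was above the controls, with a log2 fold change of 0.56 ± 0.16 SE that did not pass the test (limma adjusted p = 0.112). At P60, Fgf10 was at 2044, 1582 and 2197 normalised reads in control and at 1439, 918 and 1405 in dM1/2. Every dM1/2 library was below the controls, with a log2 fold change of -0.65 ± 0.22 SE (unadjusted p = 0.0181, limma adjusted p = 0.986). The change of this effect from P20 to P60 was not called by limma, which called 0 of 14037 genes, and was called by DESeq2 with 1.48% of genes.

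**Figure D2:**
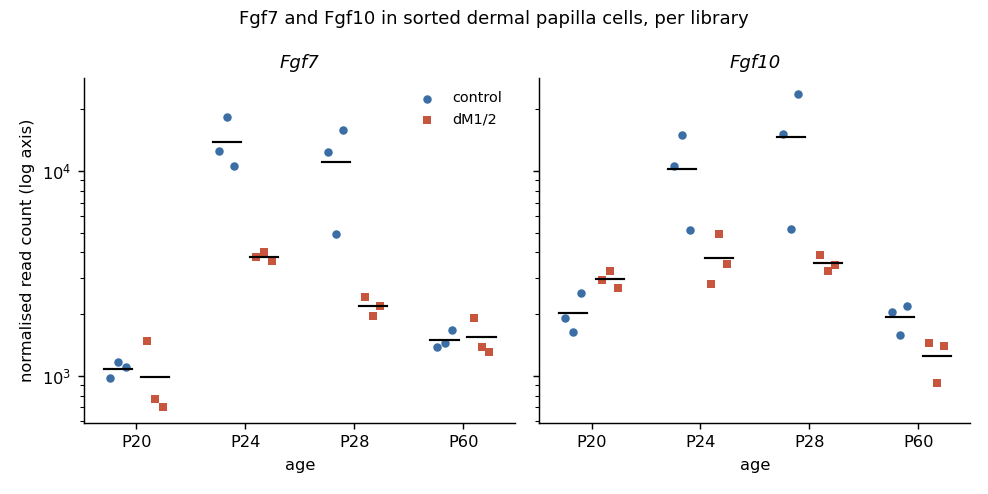
Normalised read count (log axis) of Fgf7 and Fgf10 in each of the 24 libraries by age, with controls as blue circles, dM1/2 as red squares and bars at the group means. At P24 and P28 all dM1/2 libraries lie below all controls for both genes, and for Fgf10 they lie above the controls at P20 and below them at P60.

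Of the other ligands, Fgf2, which lacks a classical secretion signal and is bound by heparan sulfate, was also lower in anagen dM1/2 cells. At P24 it was at 945, 803 and 823 normalised reads in control and at 616, 454 and 347 in dM1/2, and at P28 at 1279, 947 and 1187 in control and at 440.1, 376 and 528 in dM1/2. The groups did not overlap at either age. The difference was 1.86-fold at P24 (log2 fold change -0.89 ± 0.21 SE, limma adjusted p = 0.0183) and 2.54-fold at P28 (-1.34 ± 0.18 SE, adjusted p = 0.00187). The P28 call was kept without any 1 library, and the P24 call was lost without P24 control 1 (adjusted p = 0.0525), control 2 (0.0504) or dM1/2 2 (0.0566). In telogen the genotypes overlapped, with Fgf2 between 1286 and 1782 normalised reads at P20 and between 1399 and 2008 at P60.

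Fgf18, Fgf1 and Fgf9 were low and were called at no age. Fgf18, known as a telogen signal of the follicle, ranged from 20.2 normalised reads (P24 control 3) to 247 (P60 dM1/2 1), and the genotypes overlapped at every age. Fgf1, which binds all FGF receptors, ranged from 2.4 to 98.5 normalised reads, both extremes in P60 dM1/2 libraries. Fgf9 ranged from 3.8 (the library labelled P28 control 3) to 53.6 (P20 control 1). Fgf1 at P20 and Fgf9 at P24 were under the minimum mean of 10 normalised reads and were not tested. A group of 3 libraries held 11 to 218 reads of Fgf1 and 30 to 85 of Fgf9. Libraries of a group could also differ widely, as with 10, 83 and 8 reads of Fgf1 in P24 dM1/2. Modest differences in these genes may have been missed, and the power to find them was not computed.

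The receptors split by direction in early anagen. Fgfr2, whose epithelial form receives Fgf7 and Fgf10, was at 8188, 9033 and 11469 normalised reads in the P24 controls and at 5335, 5227 and 4245 in dM1/2. Reads summed over the gene do not separate its receptor forms. The groups did not overlap and differed 1.93-fold (log2 fold change -0.95 ± 0.17 SE, limma adjusted p = 0.00772), a call kept without any 1 library. At P28, Fgfr2 was at 6946, 4364 and 8614 normalised reads in control and at 4475, 3158 and 4092 in dM1/2. The genotypes overlapped through P28 control 2, and the log2 fold change of -0.72 did not pass the test (limma adjusted p = 0.0806). Leaving P28 control 2 out gave -1.0 and a call (adjusted p = 0.0107), and DESeq2 called it with all libraries (0.0225, with 38.2% of all genes called).

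Fgfr1, the most abundant kinase receptor of these cells, was at 21992, 18386 and 34727 normalised reads in the P24 controls and at 16982, 15152 and 11081 in dM1/2. The groups did not overlap, but the log2 fold change of -0.77 ± 0.28 SE did not pass the test (limma adjusted p = 0.0832). It was called by DESeq2 (adjusted p = 0.0114, with 29.4% of all genes called) and in 1 limma fit over 24 libraries (0.0122, with 25% called). At P28, Fgfr1 was at 14302, 10379.7 and 15117 normalised reads in control and at 8004, 8139 and 8722 in dM1/2. All dM1/2 libraries were under the controls, 1.58-fold lower (log2 fold change -0.66 ± 0.19 SE, limma adjusted p = 0.0363). This call was kept without P28 control 2 (-0.83) and lost without P28 control 1, the library labelled P28 control 3 or any 1 dM1/2 library, with adjusted p from 0.0509 without the library labelled control 3 up to 0.132. It was also lost with no filter on low values (adjusted p = 0.0575).

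Fgfr3 and Fgfrl1 were higher in dM1/2 at P24. Fgfr3, a kinase receptor best known for restraining bone growth, was at 711, 1159 and 1098 normalised reads in control and at 2535, 1887 and 2328 in dM1/2, and Fgfrl1 at 707, 752 and 751 in control and at 1167, 1056 and 1139 in dM1/2. Neither gene's groups overlapped, and both calls were kept without any 1 library. The Fgfr3 call was lost in 1 fit over all 24 libraries (limma adjusted p = 0.0751). Fgfr3 was 2.31-fold higher (log2 fold change 1.21 ± 0.21 SE, limma adjusted p = 0.00641) and Fgfrl1 1.52-fold higher (0.60 ± 0.11 SE, adjusted p = 0.00647). At P28 both genes overlapped between the genotypes. Fgfr3 was at 1476, 614 and 1539 normalised reads in control and at 1650.3, 1402 and 1424 in dM1/2 at that age, and Fgfrl1 at 1005, 567 and 1151 in control and at 898, 978 and 936 in dM1/2. Their log2 fold changes at P28 were 0.41 (95% confidence interval -0.41 to 1.24) and 0.11 (-0.50 to 0.72), and without P28 control 2, the lowest library in both, they were -0.02 and -0.20.

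At P20 the same receptors had every dM1/2 library above the controls without a call. Fgfr3 was at 951, 371 and 519 normalised reads in control and at 1226, 1275 and 1409 in dM1/2 (log2 fold change 1.19 ± 0.28 SE, limma adjusted p = 0.0837), and Fgfrl1 at 335, 295 and 275 in control and at 452, 403 and 388 in dM1/2 (0.46 ± 0.14 SE, adjusted p = 0.135). Without P20 control 1, which was the highest control for both genes, the log2 fold changes were 1.57 and 0.54 and both passed. At P60 all 4 receptors overlapped between the genotypes. The library P60 dM1/2 1 was the lowest of its age for Fgfr2 (1596 normalised reads, against 3251 and 6001 in the other dM1/2 libraries) and Fgfr3 (90.9, against 551 and 442). It was also the highest for Fgf1, and its summed levels of 7 endothelial markers (6182.7 normalised reads) and 6 adipocyte markers (16275.9) were the highest of the age. So were its sums of the melanocyte (2772) and immune (1136) markers. It had the lowest sums of the DP (17003) and dermal sheath (6594) markers of the age. Without it the log2 fold change of Fgfr3 at P60 was 0.27 in place of -0.54.

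**Figure D3:**
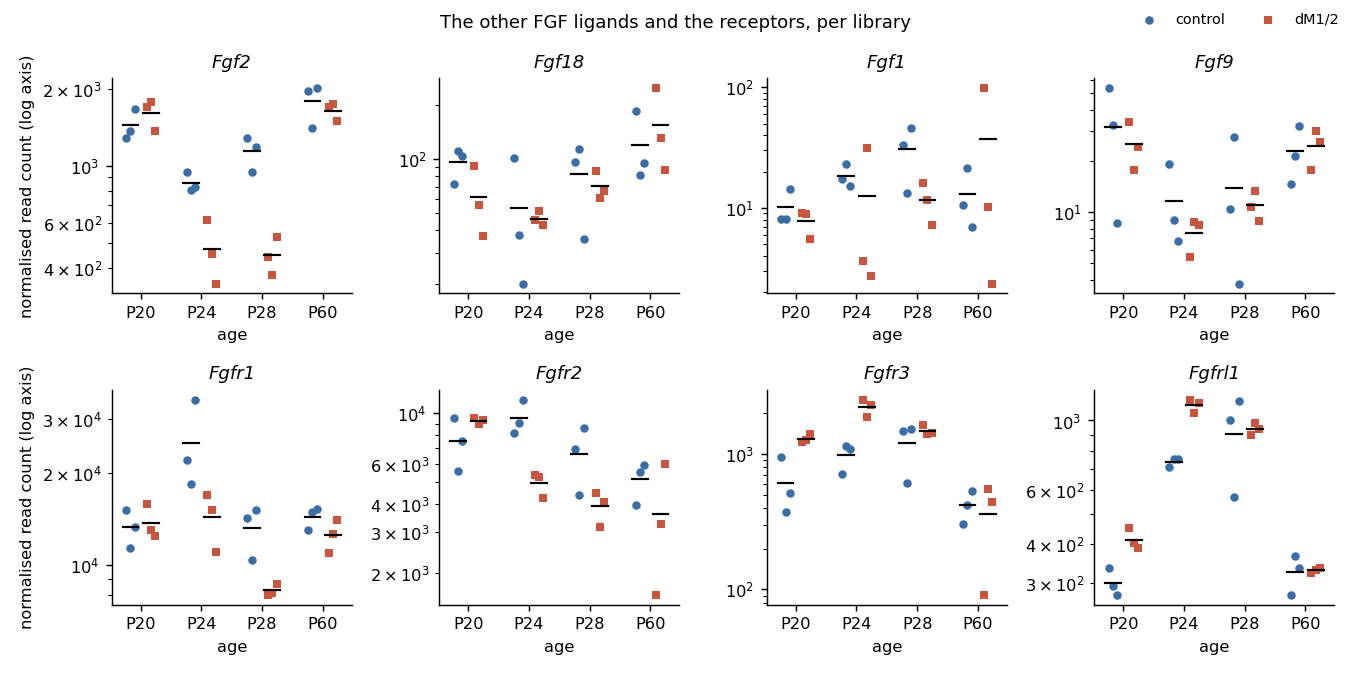
Normalised read count (log axis, a separate scale per gene) of Fgf2, Fgf18, Fgf1, Fgf9 and the 4 receptors in each library by age, with controls as blue circles, dM1/2 as red squares and bars at the group means. At P24 the dM1/2 libraries lie below the controls for Fgf2, Fgfr1 and Fgfr2 and above them for Fgfr3 and Fgfrl1.

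Counted over the 10 genes, 0 of the 9 tested at P20 passed an adjusted p of 0.05, where 0.433% of 13845 genes did, and 3 (Fgf10, Fgfr3 and Fgfrl1) had an unadjusted p under 0.05, as did 19.8% of all genes, and groups that did not overlap, against 25.4% of all genes. DESeq2 on the recovered reads called 2 of the 9, Fgf10 and Fgfr3, both higher, and 6.42% of all genes at P20, 2.57% higher, and edgeR called 0 of the 9. Without P20 control 1, limma called 2. At P24, 6 of 9 passed, where 26.6% of 14028 genes did. The 4 lower genes (Fgf2, Fgf7, Fgf10 and Fgfr2) stand against 11.8% of all genes lower, the 2 higher (Fgfr3 and Fgfrl1) against 14.8% higher, and 7 of 9 had groups without overlap against 44.8% of all genes. At P28, 4 of 10 passed, all lower (Fgf2, Fgf7, Fgf10 and Fgfr1), where 15.6% of 14126 genes were called lower and 35.5% in either direction, and 4 of 10 had groups without overlap against 51.3%. The P28 count was 2 without P28 control 1 or any 1 dM1/2 library and 6 without P28 control 2. Shares of all genes called with 1 library left out are not given here, so such counts have no background beside them. At P60, 0 of 10 passed in limma, edgeR and DESeq2, where limma called 0.0% of 14042 genes and DESeq2 0.228%. Of the 10, 1 (Fgf10) had an unadjusted p under 0.05 at P60, as did 3.74% of all genes, and groups without overlap, as had 8.87%. Over the members tested, the median log2 fold change was -0.89 in early anagen (P24) and -0.69 in mid-anagen (P28), against 0.16 and -0.04 in the telogens of P20 and P60, and the median of all genes was within 0.02 of 0 at each age.

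**Figure D4:**
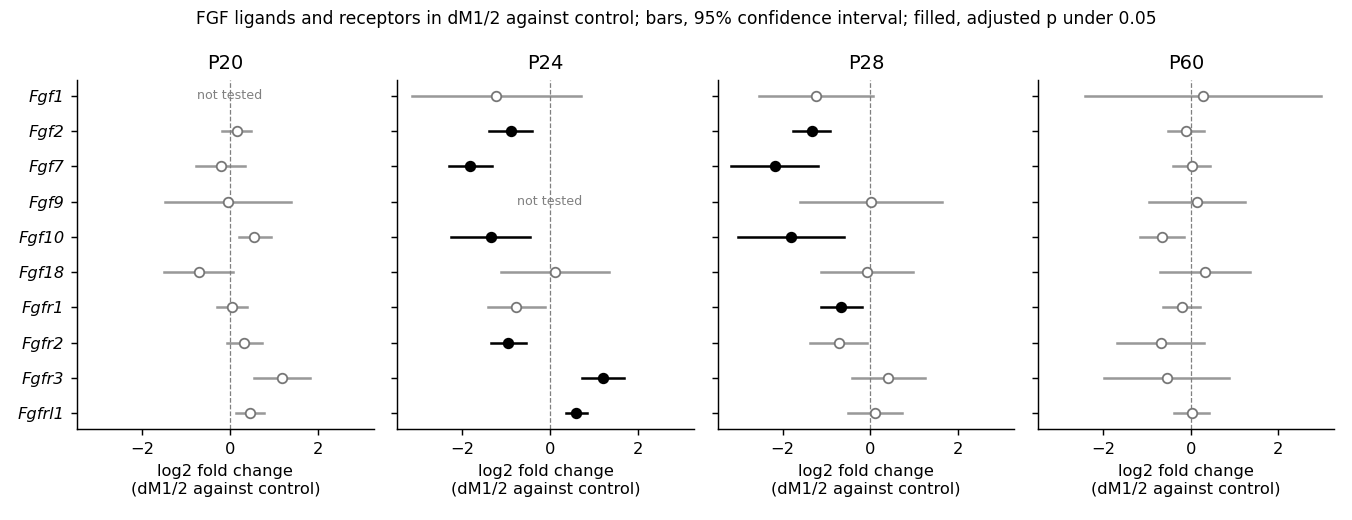
Log2 fold change of dM1/2 against control (horizontal axis) for each gene at the 4 ages, with bars for the 95% confidence interval and filled points where the limma adjusted p was under 0.05. Fgf2, Fgf7 and Fgf10 are filled and below 0 at P24 and P28, Fgfr3 and Fgfrl1 are filled and above 0 at P24, and no point is filled at P20 or P60.

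In these bulk libraries, fewer cells of a type and less RNA per cell cannot be told apart. The summed level of the 15 DP markers, none at 0, was 270703 to 340909 normalised reads in the P24 controls and 146234 to 176402 in dM1/2, with 3 markers called higher and 6 lower. At P28 the sum was 143192 to 399877 in control, lowest in P28 control 2, and 123993 to 133816 in dM1/2, with 4 markers higher and 3 lower. At P24 the 7 dermal sheath markers, none at 0, summed to 7125 to 13864 in control and 4576 to 6728 in dM1/2. At P28 the 6 adipocyte markers summed to 5854 to 14427 in control and 2917 to 2995 in dM1/2, and the 5 Schwann cell markers to 253 to 646 and 101 to 124, with none at 0. The adipocyte sum rests largely on Lpl, whose median over all libraries was 3251 normalised reads, against 159 for Cd36, the next highest. Of 5 adipocyte markers tested at P28, 3 were called lower and 0 higher. The part of these shifts in the FGF values was not tested. The sums of the keratinocyte, melanocyte, endothelial, immune and skeletal muscle markers overlapped between the genotypes at P24 and P28. In telogen the DP marker sum was 40843 to 56141 in control and 55142 to 72957 in dM1/2 at P20. At P60 it was 30778 to 37820 in control and 17003 to 35002 in dM1/2, and the genotypes overlapped at both ages. The dermal sheath sum at P60 was 14954 to 16049 in control and 6594 to 14179 in dM1/2, without overlap. The immune sum was 822 to 990 in control and 534.5 to 775 in dM1/2 at P20, with Cd52 at 0 in control. At P60 the immune sum was 286 to 365 and 382 to 1136, so that it overlapped at neither age. All other marker sums overlapped between the genotypes at P20 and P60. The part of the marker shifts in the telogen FGF values was not tested.

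The family also differed between the anagen and telogen ages, which differ in sex and depth too. In controls, anagen (P24 and P28) against telogen (P20 and P60) called 6 of 10 members, 5 higher and 1 lower, where 45.6% of 14066 genes were called, 23.8% higher and 21.9% lower. Fgf7 was 9.09-fold higher in anagen (log2 fold change 3.18 ± 0.25 SE, limma adjusted p = 6.45e-06) and Fgf10 5.48-fold higher (2.45 ± 0.35 SE, adjusted p = 0.000332). The 6 anagen and 6 telogen control libraries did not overlap for either gene, and the share of all genes without overlap between these libraries was not counted. Of the 15 DP markers, 12 were called higher and 1 lower in the same contrast, with a median log2 fold change of 2.69, and their sum was 30778 to 56141 normalised reads in telogen and 143192 to 399877 in anagen controls. The 8 skeletal muscle markers summed to 779 to 1402 in telogen and 56.5 to 414 in anagen controls. Their sum rests largely on Des, whose median over all libraries was 384 normalised reads, against 12.6 for Ckm, the next highest. The part of these shifts in the FGF values was not tested. Fgfrl1 was 2.56-fold and Fgfr3 2.15-fold higher, and Fgf2 was 1.62-fold lower (limma adjusted p = 0.000102, 0.00958 and 0.00103). Fgf1 was called higher at an adjusted p of 0.0496, which was lost without 9 of the 12 libraries taken 1 at a time. Without P28 control 2, 9 of the 10 genes were called, with Fgf7 at 3.44 and Fgf10 at 2.76. The share of all genes called without that library is not given here, so this count has no background beside it.

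In dM1/2 the same contrast called 6 of 10, 4 higher and 2 lower, where 62.1% of 14277 genes were called, 32.7% higher and 29.4% lower. Fgf7 was 2.43-fold higher in anagen (log2 fold change 1.28 ± 0.17 SE, limma adjusted p = 3.8e-05) and Fgf10 1.89-fold higher (0.92 ± 0.15 SE, adjusted p = 0.000179). Fgfr3 was 3.01-fold and Fgfrl1 2.77-fold higher, while Fgf2 was 3.58-fold lower. The count of 6 includes Fgf9, 2.53-fold lower. Its dM1/2 means were 25.3 (P20) and 24.6 (P60) normalised reads against 7.56 (P24) and 10.9 (P28). Fgf9 passed the minimum mean of 10 in this fit through the telogen libraries, where it is high, so its value is a description. Of the DP markers, 13 were called higher and 0 lower, with a median of 2.51, and their sum was 17003 to 72957 normalised reads in telogen and 123993 to 176402 in anagen dM1/2 libraries.

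The difference of the dM1/2 effect between anagen and telogen was tested in a fit of all 24 libraries. It passed for 4 of 10 members, all lower in anagen, where 30.2% of 14243 genes were called and 14.1% lower. The log2 difference was -1.90 ± 0.32 SE for Fgf7 (limma adjusted p = 0.000245), -1.53 ± 0.41 SE for Fgf10 (0.00745) and -1.15 ± 0.19 SE for Fgf2 (0.000223). These 3 calls were kept without any 1 of the 24 libraries and with P24 alone as anagen. Fgfr1 differed by -0.64 ± 0.21 SE (limma adjusted p = 0.0284), and this call was lost without P20 control 2, P20 dM1/2 1, P24 dM1/2 3 or P28 control 1 and with P24 alone. The difference was 0.48 (95% confidence interval -0.53 to 1.5) for Fgfr3, 0.11 (-0.26 to 0.48) for Fgfrl1 and -0.66 (-1.36 to 0.04) for Fgfr2.

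Between P24 and P28, 0 of 10 members were called in controls, where 1.46% of 13966 genes were. Fgf2 and Fgfr1 had an unadjusted p under 0.05, as did 18.6% of all genes, and DESeq2 called Fgfr1 alone, with 8.81% of all genes. Fgf7 changed by -0.44 (95% confidence interval -1.56 to 0.67) and Fgf10 by 0.40 (-1.12 to 1.92) on the log2 scale. In dM1/2, Fgf7 was the 1 member called of 9 tested, 1.75-fold lower at P28 (log2 fold change -0.80 ± 0.12 SE, limma adjusted p = 0.0153), where 0.983% of 14032 genes were called lower and 2.67% in either direction. Its 3 P24 libraries (3645 to 4004 normalised reads) lay above its 3 P28 libraries (1955 to 2413). The share of all genes without overlap between these groups was not counted. The call was lost without P24 dM1/2 1, P28 dM1/2 2 or P28 dM1/2 3. The Fgf7 call was also lost in 1 limma fit over 24 libraries (adjusted p = 0.373, with 0.548% of all genes called). Without P24 dM1/2 2 or without P24 dM1/2 3, 2 members were called in dM1/2. The change from P24 to P28 did not differ between the genotypes for any of the 10 (limma called 0.707% of 14139 genes and DESeq2 3.86%, and 0 members but 11.9% of all genes had an unadjusted p under 0.05), with a log2 difference of -0.36 ± 0.50 SE for Fgf7 and -0.44 ± 0.71 SE for Fgf10. Without P28 control 2, Fgfrl1 was called at -0.80.

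The genes whose pattern was most like that of Fgf7 were ranked by the root mean square difference of their centred log2 values over the 24 libraries, among 10465 genes with a mean of at least 100 normalised reads. The nearest 3 were Ncoa7 (0.50), Cdc42ep1 (0.54) and the DP marker Itga9 (0.55), where the median over genes was 1.45, and Fgf10 stood at rank 26 (0.72). For Fgf10 the nearest were Tmem176a (0.47), Thsd7a (0.47) and Tmem2 (0.48), where the median was 1.21, and Fgf7 stood at rank 97. These genes share with the ligands the libraries, depth and hair cycle stage.

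Around the receptors, genes of the FGF pathway were called in both directions in anagen. The counts of each list stand beside those of all genes, of which 14.8% were called higher and 11.8% lower at P24, and 20.0% higher and 15.6% lower at P28. Of 7 co-receptors and binding proteins tested at P24, 2 were higher and 1 lower in dM1/2, and of 7 at P28, 1 was higher and 2 lower, where 26.6% and 35.5% of all genes were called. N-cadherin (Cdh2), an adhesion protein that binds FGF receptors, was lower at both ages, with 1575 ± 377 normalised reads in control and 557 ± 163 in dM1/2 at P24 (log2 fold change -1.51, limma adjusted p = 0.00607) and -1.12 at P28 (0.0193). L1cam, a neural adhesion protein, was higher at both ages, at 30.2 ± 9.12 normalised reads in control and 150.0 ± 28.0 in dM1/2 at P28 (log2 fold change 2.30, limma adjusted p = 0.00153) and 1.30 at P24 (0.0132). Flrt1, a membrane protein that binds FGF receptors, was higher in dM1/2 at P24 (1.12, adjusted p = 0.0186) and lower at P28 (-1.67, 0.00456). The P24 call of L1cam was lost without P24 control 2 or dM1/2 1, that of Flrt1 without these or dM1/2 2, and the P28 call of Cdh2 without P28 control 1, dM1/2 1 or dM1/2 2. The control mean of Flrt1 was 81.5 ± 3.99 normalised reads at P24 and 516 ± 83.9 at P28, and the dM1/2 mean 186 ± 62.0 and 167 ± 64.7. The list's P24 count went from 3 to 1 without P24 control 2 or dM1/2 1, and its P28 count from 3 to 5 without P28 control 2.

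Of 11 heparan sulfate genes, 4 were lower and 1 higher in dM1/2 at each of P24 and P28, where 11.8% and 15.6% of all genes were lower. Ext1, a polymerase of the heparan sulfate chain, was lower at both ages (log2 fold change -0.80 and -0.71, limma adjusted p = 0.00582 and 0.00509). The lower genes with the largest change beside it were Ndst2 (-0.56, adjusted p = 0.0235) at P24 and Extl3 and Ndst1 (-0.93 each) at P28. The sulfotransferases Hs2st1 (0.59, at P24) and Hs6st1 (0.61, at P28) were the higher ones. The Ndst2 call was lost without P24 control 1, control 2, dM1/2 1 or dM1/2 3, and the list's P24 count went from 5 to 2 without P24 control 2 and to 3 without dM1/2 1 or dM1/2 3.

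Of 20 genes of the relay from receptor to ERK, 2 were higher and 1 lower at P24, and 4 were higher and 4 lower at P28, where 26.6% and 35.5% of all genes were called in either direction. The docking protein Frs2, which joins FGF receptors to RAS signalling, was lower at both ages (log2 fold change -0.43 and -0.75, limma adjusted p = 0.0389 and 0.00621), and the P24 call was lost without any 1 library but P24 control 1. The adaptor Gab1 was higher at P24 (0.58, adjusted p = 0.0076). At P28 the kinase Araf was lower (-0.64), and the adaptor Shc1 (0.62) was higher. The calls of Araf and Shc1 were lost without P28 dM1/2 2. Left out 1 at a time, every P24 library but control 1 took the count from 3 to 1, and the P28 count went from 8 to 4 without P28 control 1, 5 without the library labelled P28 control 3, 1 without dM1/2 2 and 3 without dM1/2 3.

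Of 14 targets and feedback genes of FGF and ERK signalling, 1 was higher and 2 lower at P24, and 1 was higher and 3 lower at P28, again beside 26.6% and 35.5% of all genes. Dusp6, the ERK phosphatase used as a readout of FGF signalling, was at 542 ± 82.3 normalised reads in control and 1202 ± 261 in dM1/2 at P24 (log2 fold change 1.14, limma adjusted p = 0.00565), and at 467 ± 15.8 and 2239 ± 430 at P28 (2.24, 0.000293). Dusp4, another ERK phosphatase, was at 5095 ± 1684 normalised reads in control and 906 ± 110 in dM1/2 at P28 (-2.45, adjusted p = 0.000691) and was not called at P24. The early response gene Egr1 was lower at both ages (-0.94 and -0.90, adjusted p = 0.0378 and 0.04), and the phosphatase Dusp5 was lower at P24 (-0.71, adjusted p = 0.0459). The P24 calls of Egr1 and Dusp5 were lost without any 1 library but P24 control 1, and the P28 call of Egr1 without any 1 but the library labelled P28 control 3. The list's count went from 3 to 1 without P24 control 2 or any 1 dM1/2 library of P24, and from 4 to 2 without P28 control 1 or any 1 dM1/2 library of P28. The list medians were -0.14 at P24 and -0.13 at P28, against medians of all genes of -0.01 and 0.0.

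**Figure D5:**
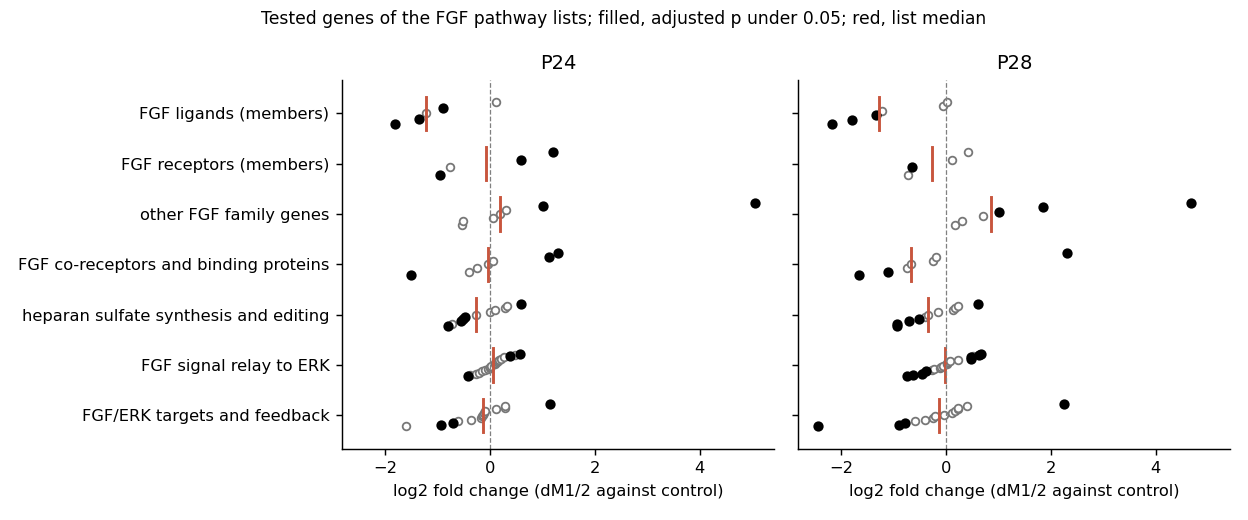
Log2 fold change of dM1/2 against control (horizontal axis) at P24 and P28 for the tested genes of each FGF list, filled where the limma adjusted p was under 0.05, with list medians as red bars. The medians of the ligands are -1.22 and -1.29, and the co-receptors, heparan sulfate genes, relay genes and targets lie on both sides of 0 at both ages. The points near 5 are Fgf3 and Fgf15, whose size depends on the value of 1 added to counts at or near 0 in control.

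Of 17 other FGF family genes, 7 passed the minimum mean at P24 and 6 at P28. Fgf3 at P24 and Fgf15 at P28 passed only through the dM1/2 libraries, where they are high, so their values are a description and they are not counted. Of the other genes that passed, 1 of 6 was called at P24 and 2 of 5 at P28, higher in dM1/2, beside 14.8% and 20.0% of all genes. Fgf3, a ligand of the epithelial form of Fgfr2, had 0 reads in all 12 control libraries and 37.8, 24.4 and 35.8 normalised reads in the P24 dM1/2 libraries, at least 25.4-fold above the level of 3 reads per control library. At P28 it was at 15.4, 12.9 and 20.1 normalised reads in dM1/2, at least 11.1-fold above that level. Fgf11, an intracellular FGF that is not secreted, was higher in dM1/2 at P20 (165 ± 20.2 normalised reads in control, 355 ± 32.3 in dM1/2, limma adjusted p = 0.0379), at P24 (446 ± 18.8 and 907 ± 153, 0.00382) and at P28 (458 ± 185 and 874 ± 39.4, 0.031). Fgf13, of the same intracellular group, was at 82.4 ± 40.5 normalised reads in control and 277 ± 27.6 in dM1/2 at P28 (adjusted p = 0.00806). Fgf15, an endocrine FGF, was at 0.0 to 0.64 normalised reads in the P28 controls and 23.1 to 37.7 in dM1/2. Fgfr4, the remaining kinase receptor, was called at no age. Its control mean was 2338 ± 179.5 normalised reads in P20 libraries and 1486 ± 568 in P60 libraries, against 357 ± 129.8 (P24) and 389.7 ± 461 (P28).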

How the data were processed

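The deposited tables, 1 per age, held for each gene a normalised signal per library, the mean per genotype and the authors' own fold changes and p-values, which were not used. Per the labels and the study's methods, the authors trimmed reads with Trimmomatic, mapped them to mm10 with TopHat version 2, counted them per Ensembl gene (GRCm38.p4) with HTSeq and normalised them with DESeq2. The kit kept strand, and the strand setting of the counting is not given in the sources used here. Dividing each deposited signal by the value of 1 read gave whole reads for 100% of values (tolerance 0.001).

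Genes with a mean of at least 10 normalised reads over the libraries of a fit were tested with limma 3.58.1 (R 4.3.3, trend, two-sided) on log2(normalised reads + 1), with Benjamini-Hochberg adjustment over all genes tested and a threshold of 0.05. Fold changes are on that scale and understate the change of low genes. edgeR 4.0.16 and DESeq2 1.42.0 on the recovered reads, a pseudocount of 10, no filter, TMM scaling, 1 fit over 24 libraries, a replicate block and leaving out each library were alternatives. Shares of all genes called with 1 library left out are not given, so counts from those fits stand without a background. The scripts were tested on simulated data. All 24 replicate pairs within groups differed beyond counting error (chi-square per gene 10.4 to 1490). P-values measure the spread between these libraries, which the labels call biological replicates.

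Lengths are merged exons of GENCODE M21 (GRCm38), in which 25431 of 25755 genes were matched. Of the members, Fgf2 shares 640 exon bases with Nudt6 and Fgfr3 shares 998 with G630022F23Rik, both on the other strand. Fgfr2 shares 314 with Ctbp2 on the same strand. How the counting treated reads there is not given in the sources used here, and such reads may be missing from the counts. Gene starts, spans and promoters are from RefSeq (GRCm38.p6). The members, gene lists and markers were chosen with earlier results of these data known. Genes named were the 10 members, Hdac1 and Hdac2, other FGF family genes that passed the filter, of each pathway list up to 2 largest rises and falls past the threshold at P24 and P28, and the 3 genes most like Fgf7 and Fgf10. A gene of the relay list that this rule names is not reported here.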

Additional observations from a re-analysis of the deposited data

Results flagged for a closer look

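The dM1/2 effect differed between anagen and telogen for 4 of the 10 genes, by the test of the difference itself in limma over 24 libraries. All 4 were lower in anagen, where 30.2% of 14243 genes were called and 14.1% lower. The log2 difference was -1.15 for Fgf2, -1.90 for Fgf7, -1.53 for Fgf10 and -0.64 for Fgfr1. In each case the fold change in anagen was negative and the mean change in telogen was nearer to 0. The Fgfr1 call was lost with the replicate block (limma adjusted p = 0.0625) and with P24 alone as anagen (0.106). It was also lost without P20 control 2, P20 dM1/2 1, P24 dM1/2 3 or P28 control 1.

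Fgf10 had every dM1/2 library above the controls at P20 and every dM1/2 library below them at P24, P28 and P60, where its log2 fold change at P60 was -0.65. The difference between the telogen ages was tested after these values were seen. The effect at P60 minus that at P20 was -1.21 ± 0.29 SE on the log2 scale (unadjusted p = 0.00116), which did not pass limma's adjustment over 14037 genes (adjusted p = 0.215, with 0 genes called and 1756 at an unadjusted p under 0.05). DESeq2 gave -1.17 (adjusted p = 0.0239, with 208 genes or 1.48% called) and edgeR -1.19 (adjusted p = 0.224). The 15 DP markers had a median log2 fold change of 0.51 at P20 and -0.91 at P60. The medians of all genes were -0.01 and 0.02. The part of the DP marker shift in the Fgf10 values was not tested.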

How the results depend on the processing

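Of 1695 gene values under alternatives, 1540 kept their direction and side of the threshold, 99 lost a call, 29 gained one and 27 changed direction. The causes were not tested. Members called at P20 were 2 with DESeq2, 1 with the replicate block and 0 to 2 with 1 library left out, against 0. They were 2 to 6 at P28 with 1 left out, against 4, and 4 to 6 at P24, 5 to 9 for anagen against telogen in control, 6 to 8 in dM1/2 and 3 to 5 for the difference of effects. From P24 to P28, 1 was called in control with DESeq2 and with 1 fit over 24 libraries, and in dM1/2 3 with DESeq2, 0 with the 24-library fit and 0 to 2 with 1 left out, against 1. For the difference of that change the count was 0 to 1 with 1 left out. DESeq2 also called Fgf10 at P60 against P20, and Fgfr1 at P24 and Fgfr2 at P28. In 1 fit over 24 libraries limma called Fgfr1 and lost Fgfr3 at P24.

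No value that changed direction was past the threshold in the main test. Fgf7 at P60 was -0.01 with limma on TMM-scaled log2-CPM, Fgfrl1 at P60 was -0.01 with edgeR, and Fgfr1 in dM1/2 was 0.12 with P24 alone as anagen, which was chosen after seeing the data. With 1 library left out the log2 range was -0.05 to 0.15 for Fgfr1 at P20, -0.02 to 0.64 for Fgfr3 and -0.20 to 0.31 for Fgfrl1 at P28, and -0.15 to 0.13 for Fgf7, -1.03 to 0.27 for Fgfr3 and -0.09 to 0.12 for Fgfrl1 at P60. From P24 to P28 in control it was -0.78 to 0.07 for Fgf7, -0.07 to 1.02 for Fgf10 and -0.02 to 0.64 for Fgfr3, and in dM1/2 -0.25 to 0.16 for Fgf2 and -0.23 to 0.17 for Fgf10. For the difference of that change it was -1.06 to 0.03 for Fgf10, -0.16 to 0.30 for Fgfr1 and -0.05 to 0.44 for Fgfr2, and for anagen minus telogen -0.04 to 0.21 for Fgfrl1.

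Genes called of all tested at P20 were 60 in the main test, 889 with DESeq2, 439 with the block and 23 with 1 fit over 24 libraries. From P24 to P28 they were 204, 1231, 27 and 1313 in control, 375, 905, 450 and 78 in dM1/2 in that order. At P24 they were 3735, and 2366 with the block. For the difference of the change they were 100, with 546 by DESeq2, 151 with a pseudocount of 10 and 0 with the block. At P60 they were 0, with 32 by DESeq2, 19 with 1 fit, 6 with the block and 1 with a pseudocount of 10.

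Replicate numbers are shared between genotypes, and the labels do not say whether they mark pairs. Deviations of same-numbered libraries correlated at 0.06 to 0.21 at P20, -0.388 to 0.028 at P24, -0.236 to 0.015 at P28 and 0.029 to 0.304 at P60. Not every library correlated best with its own number at any age, although each P20 dM1/2 library did. With 3 libraries a group these values cannot settle whether the numbers mark pairs. With the replicate block, counts of the pathway lists at P24 went from 5 to 2 for heparan sulfate genes, 3 to 1 for the relay and 3 to 1 for targets. At P28 the block gave adjusted p = 0.082 for Fgfr1, called without it, and 0.0469 for Fgfr2, not called without it, and 0.039 for Fgfr3 at P20. With 3 libraries a group and 8171944 to 13369732 reads in telogen libraries, small changes of Fgf1, Fgf9 and Fgf18 may have been missed. The power to find them was not computed.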

Other observations

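The balance of the 2 mesenchymal ligands was not the same in all groups. The ratio of Fgf10 to Fgf7 per kilobase was 1.39, 0.989 and 1.63 in the P20 controls and 1.4, 2.96 and 2.7 in P20 dM1/2, with overlapping groups. At P24 it was 0.597, 0.577 and 0.343 in control and 0.525, 0.867 and 0.683 in dM1/2, also with overlap. At P28 it was 0.856, 0.751 and 1.05 in control and 1.14, 1.18 and 1.12 in dM1/2, where every dM1/2 library was higher. At P60 it was 1.04, 0.77 and 0.929 in control and 0.529, 0.468 and 0.758 in dM1/2, where every dM1/2 library was lower. The ratios were not tested.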
